A study of Labrus bergylta with 24 samples.

Results

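The ATP-binding cassette (ABC) transporters of the ballan wrasse intestine were described by subfamily, from A to G, along 4 consecutive intestinal segments. Members were every gene model of the expression table whose deposited name began with ABC, a letter from A to G and a digit, whatever its case. This gave 58 of 27392 gene models, of which 11 were ABCA, 10 ABCB, 20 ABCC, 3 ABCD, 1 ABCE, 3 ABCF and 10 ABCG. The names are best matches to proteins of any species, so gene models that share a name need not be copies of the named gene, and reads that fit several of them may be shared. Of 36 member names, 30 were found among the RefSeq gene symbols of this species. ABCA5, ABCB1, ABCC9, ABCD2, ABCG20 and ABCG24 were not.

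ABC proteins bind and split ATP, and most of them use it to move a substrate across a membrane. In a vertebrate enterocyte, the absorptive cell of the gut lining, ABCG5 and ABCG8 act as a pair that returns sterols to the gut lumen, and ABCA1 passes cholesterol and phospholipid out of the cell to apolipoprotein A-I. ABCB1, ABCC2 and ABCG2 pump drugs, toxins and conjugated compounds into the lumen, other members serve mitochondria, peroxisomes and lysosomes, and ABCE and ABCF proteins work in translation and carry no substrate across a membrane.

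The ballan wrasse (Labrus bergylta) is a marine fish without a stomach. RNA was sequenced from intestinal segments 1 (most anterior), 2, 3 and 4 (hind-gut) of 6 farmed fish for which no treatment was described, and each fish gave all 4 segments, so that 24 libraries fell into 4 groups of 6. The sample titles number 6 samples in each segment, and this number was read as the fish. The methods speak of 5 adult fish and 36 libraries, and all 24 libraries here were used. No strain, sex or age in numbers was stated for the fish. A segment holds many cell types, and fewer cells of a type and less RNA per cell cannot be told apart.

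The deposited values are normalized read counts: the reads of a gene model were scaled by a DESeq2 size factor for each library, and every level below is in this unit. Libraries held 7867202 to 29650320 reads, the lowest being segment 2 of fish 1. Below, a level in a segment is the median of 6 fish, with the lowest and the highest fish in parentheses. Of 14 models of enterocyte markers, 13 had a value of at least 10 in all 24 libraries, while CDX2 and MYO1A were not matched by name. The summed level of these markers was 283172 to 361214 in segment 1, 294676 to 334440 in segment 2, 249754 to 299148 in segment 3 and 148191 to 215579 in segment 4, and 9 of the 14 were called lower and 1 was called higher in segment 4 against segment 1. Smooth muscle markers (ACTA2 and ACTG2 not matched by name) summed to 22999.9 to 32143 in segment 1 and 30668 to 41733 in segment 4, and 2 of 10 tested models were called, both higher. Leukocyte markers (CD3E, CD79A and CD79B not matched by name) summed to 21577 to 28564 and 34221 to 54213, and 4 of 9 were called, all higher. Among all gene models tested, 17.1% were called higher and 14.8% lower in segment 4 against segment 1. The part of the shifts in these markers in the differences between segments given below was not tested.

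Over all gene models, the libraries of fish 2 from segments 2, 3 and 4 stood apart. Its profile was set against the segment means of the other 5 fish over 1000 genes that were picked without it. The segment 3 library had a correlation of 0.582 to segment 3 and 0.342 to segment 2, and the segment 4 library one of 0.676 to segment 4 and 0.251 to segment 3. The libraries of segments 1 and 2 had correlations of 0.896 and 0.751 to their own segments. Such correlations were not computed for the other fish. In segment 3, fish 2 lay outside the range of the other 5 fish in 19 of the 47 tested members (10 above and 9 below), near the 13 to 16 that each other fish had, while over all 19515 gene models tested it did so in 50.4% and the other fish in 24.4 to 34.3%. In segment 4 it lay outside in 31 of the 47 (13 above and 18 below), against 8 to 14 for each other fish, and in 49.3% of all gene models against 22.8 to 33.2%. In segment 2 it did so in 16 members, against 10 to 25, and in 46.0% of all gene models against 26.4 to 35.1%. In segment 1 it did so in 18 members, against 9 to 20, and in 37.3% of all gene models against 21.3 to 45.3%. Calls that changed without fish 2 or without its segment 4 library are given with the members described below.

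Levels were compared as log2(value + 1) with limma over the 19515 gene models that reached 10 in 6 or more libraries, and a Benjamini-Hochberg adjusted p under 0.05 counted as a call. For low genes this scale gives a smaller change than the levels do. P-values measure the spread between these fish. A value followed by its SE is a log2 fold change from limma, of segment 4 against segment 1 unless another pair is named. Of the 58 members, 47 passed (10 ABCA, 8 ABCB, 16 ABCC, 3 ABCD, 1 ABCE, 3 ABCF and 6 ABCG), and 38 of them had a value of at least 10 in all 24 libraries. Since the other 9 could pass through the segments where they were high, the counts below describe the 47 and not all members. The 11 that did not pass were a second Abca4, abcb6, ABCB11 and Abcc12 model each, 3 ABCC5 models, 1 ABCG2 model, both ABCG4 models and ABCG24, with highest values of 2.15 to 14.4 and 4 to 156 reads over all 24 libraries.

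**Figure D1:**
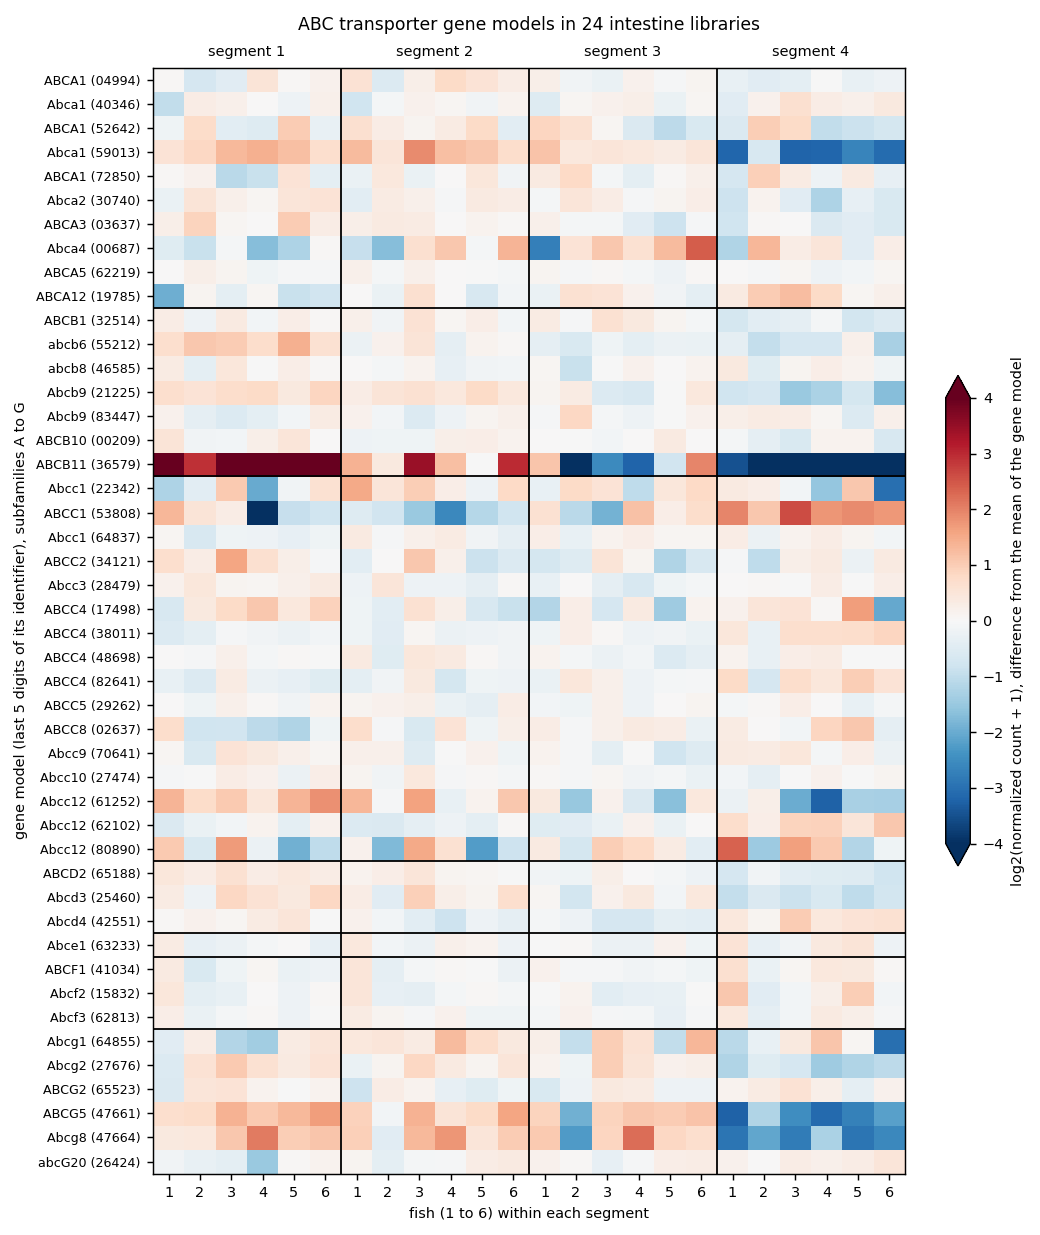
Each row is 1 of 46 tested ABC gene models and each column 1 of the 24 libraries, grouped by segment and ordered by fish; colour gives log2(normalized count + 1) minus the mean of the gene model over all libraries, and the scale stops at 4 in each direction. Abca1 (LABE_00059013), ABCB11, ABCG5 and Abcg8 are the rows that turn dark blue in segment 4, and the segment 4 library of fish 2 is paler than the others for Abca1 (LABE_00059013).

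The largest share of calls set segment 4 against segment 1. Here 7 members were higher and 13 lower, against 17.1% higher and 14.8% lower among all 19515 gene models, and the median log2 fold change was -0.07 for the 47 members and 0.04 for all gene models. Between segments 4 and 3, 3 members were higher and 10 lower, against 5.21% and 5.82% of all gene models. Between segments 3 and 1, 0 were higher and 10 lower, against 7.13% and 6.81%. Between segments 2 and 1, 0 were higher and 1 lower, against 0.477% and 0.2%, and between segments 3 and 2, 0 were higher and 0 lower, against 1.01% and 1.07%. At an unadjusted limma p under 0.05, 2 members were higher and 5 lower in segment 2 than in segment 1. In segment 3, 0 were higher and 7 lower than in segment 2, and 4 were higher and 11 lower than in segment 1. edgeR called 0 members and DESeq2 called 0, 0 and 1 members higher in these 3 comparisons. Lower members were 1, 0 and 8 with edgeR and 1, 0 and 10 with DESeq2. No share of all gene models was taken for these unadjusted, edgeR and DESeq2 counts, so they cannot be set beside one. By the F test over the 4 segments 20 of the 47 differed, against 27.5% of all gene models.

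Fish as a block in the fit raised these counts. The F test then called 29 members, against 39.9% of all gene models. For segment 4 against segment 1 the block gave 10 higher and 15 lower, against 22.0% and 19.8% of all gene models, and for segment 4 against segment 3 it gave 6 higher and 10 lower, against 8.67% and 9.67%. For segment 3 against segment 1 it gave 2 higher and 11 lower, against 11.4% and 11.8%. The block called 1 member in segment 3 against segment 2, which was lower, where 2.36% of all gene models were higher and 3.09% lower. It called 2 in segment 2 against segment 1, both lower, where 1.22% were higher and 0.692% lower. With fish as a block and fish 2 left out, an alternative chosen after seeing the data, the F test called 31 members, against 42.9% of all gene models, and 32 calls between segments were added and 0 lost. For segment 4 against segment 1 there were then 13 higher and 16 lower, against 22.0% and 20.0% of all gene models, and for segment 4 against segment 3 there were 12 higher and 12 lower, against 11.4% and 11.6%. For segment 3 against segment 1 the counts were 2 and 12, against 11.2% and 12.6%, for segment 3 against segment 2 they were 0 and 3, against 2.7% and 4.1%, and for segment 2 against segment 1 they were 1 and 5, against 2.12% and 1.49%. Among the added calls were Abcc3, ABCC2 and ABCD2 lower in segment 2 than in segment 1 (adjusted p = 0.0247, 0.0482 and 0.0391) and Abcc12 (LABE_00061252) lower in segment 4 than in segment 3 (0.0166). Over all alternatives these 4 ran up to 0.839, 1, 1 and 0.673, and others are given with their members. Without fish 2 and with no block there were 6 higher and 14 lower for segment 4 against segment 1, against 17.4% and 15.3% of all gene models. For segment 4 against segment 3 there were then 6 higher and 10 lower, against 7.44% and 7.63%.

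**Figure D2:**
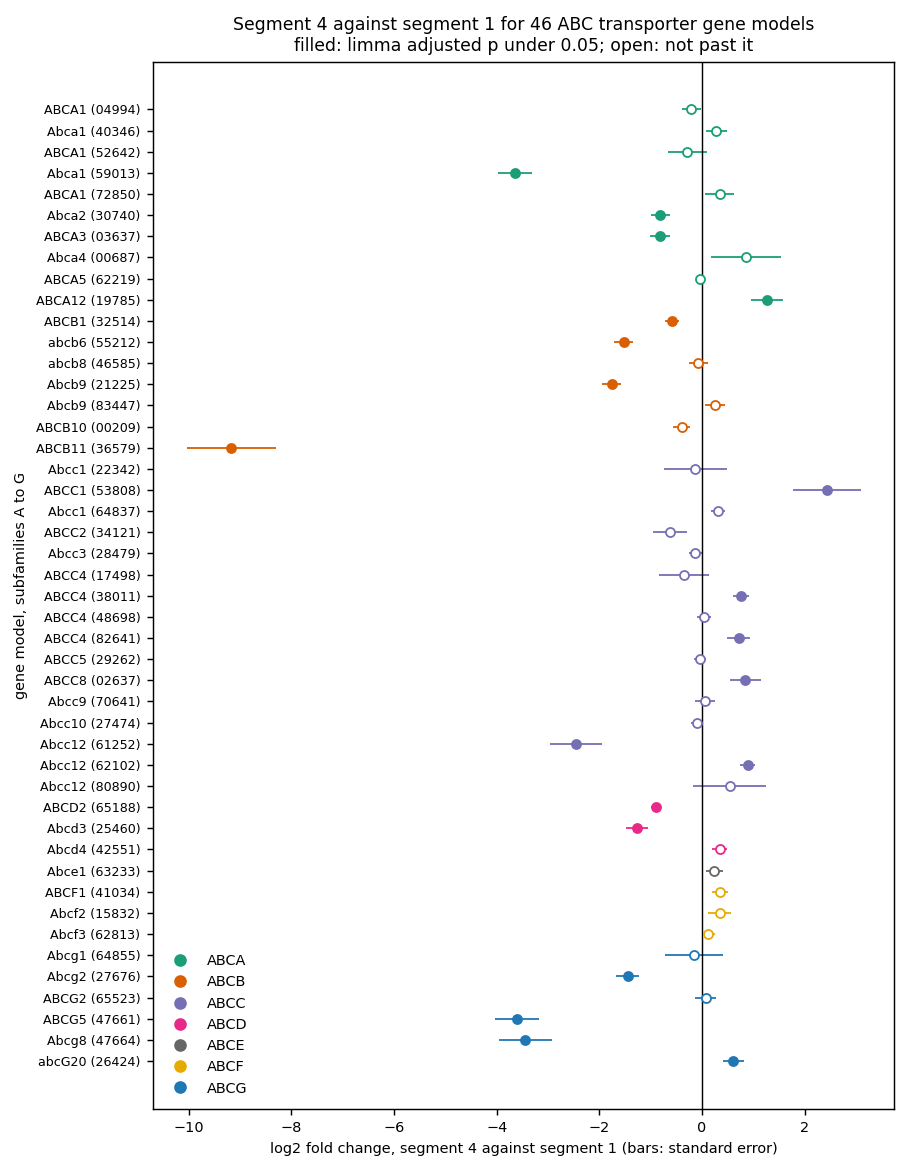
Points give the log2 fold change of segment 4 against segment 1 for 46 of the 47 tested gene models, coloured by subfamily, with bars of 1 standard error from limma and labels that end in the last 5 digits of the identifier; filled points have an adjusted p under 0.05. The 13 filled points to the left include ABCB11 at -9.17 and ABCG5, Abcg8 and Abca1 (LABE_00059013) between -3.64 and -3.44, and the 7 to the right lie between 0.61 and 2.43.

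All 6 libraries of segment 4 lay below all 6 of segment 1 in 9 of the 47 members, against 7.0% of all gene models tested. These were Abca1 (LABE_00059013), abcb6 (LABE_00055212), Abcb9 (LABE_00021225), ABCB11, Abcc12 (LABE_00061252), ABCD2, Abcd3, ABCG5 and Abcg8. All 6 lay above in 1 member, Abcc12 (LABE_00062102), against 6.29%. Segment means fell in order from segment 1 to segment 4 in 8 members (ABCA3, abcb6, Abcb9, ABCB11, Abcc12 of LABE_00061252, ABCD2, Abcd3 and ABCG5), against 16.0% of all gene models. No call at all, by the F test or in any of the 5 comparisons, was made for 23 of the 47, against 64.0% of all gene models. With the block and the fit without fish 2 counted as well, 17 of the 47 were left with no call, against 49.1%.

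The sterol exporters were high in segments 1 to 3 and low in the hind-gut. ABCG5 (LABE_00047661) was 9129.8 (6391 to 12956) in segment 1, 7281 (3753 to 12005) in segment 2, 7808 (1061 to 9020.1) in segment 3 and 671 (432 to 1745) in segment 4. Abcg8 (LABE_00047664), its partner, was 17148 (11069 to 35570.0), 16702 (6111 to 28424), 15084 (1761 to 39816) and 1308 (1098 to 3450.0) in the same order. For both genes segment 4 did not overlap segments 1 and 2, and segment 3 overlapped it only through fish 2, whose segment 3 library had 1061 for ABCG5 and 1761 for Abcg8. From segment 3 to segment 4 both genes fell in 5 of 6 fish and were higher in fish 2. The log2 fold change of segment 4 against segment 1 was -3.61 ± 0.43 (SE, adjusted p = 5.01e-07) for ABCG5 and -3.44 ± 0.51 (SE, adjusted p = 1.17e-05) for Abcg8, that is, 12.2-fold and 10.9-fold lower, and both were lower in all 6 fish. Against segment 3 it was -2.99 ± 0.43 (SE, adjusted p = 1.74e-05) and -3.0 ± 0.51 (SE, adjusted p = 0.000166). Without fish 2 the values against segment 3 were -3.73 (adjusted p = 8.59e-11) and -3.63 (adjusted p = 1.76e-07). Neither gene was called in any pair of segments 1, 2 and 3.

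The level of Abcg8 relative to that of ABCG5 was set apart by fish. In fish 4 the normalized count of Abcg8 was 4.26 to 7.28 times that of ABCG5 in its 4 segments, and in the other fish it was 1.14 to 2.54 times in 20 libraries. Abcg8 was highest in fish 4 in all 4 segments, at 35570.0, 28424, 39816 and 3450.0, whereas ABCG5 of fish 4 lay within the range of the other fish in segments 1 to 4. The fish was singled out after its values were seen, and no test was made. The genes abcg5 and abcg8 are neighbours in the RefSeq annotation of fLabBer1.1, another assembly of this species.

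A single ABCA1 model followed the same course. Abca1 (LABE_00059013) was 8582 (6182 to 11424) in segment 1, 9308 (5915 to 15610.0) in segment 2, 5795 (5336 to 9408) in segment 3 and 486 (455 to 2740.5) in segment 4. Segment 4 did not overlap any other segment, although fish 2 with 2740.5 stood far above the other 5 fish of segment 4. The log2 fold change was -3.64 ± 0.33 (SE, adjusted p = 8.25e-09) against segment 1 and -3.20 ± 0.33 (SE, adjusted p = 2.38e-07) against segment 3, and all 6 fish fell in both. Without the segment 4 library of fish 2, an alternative chosen after seeing the data, the model was called in both comparisons as well (adjusted p = 4.4e-13 and 5.24e-12).

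**Figure D3:**
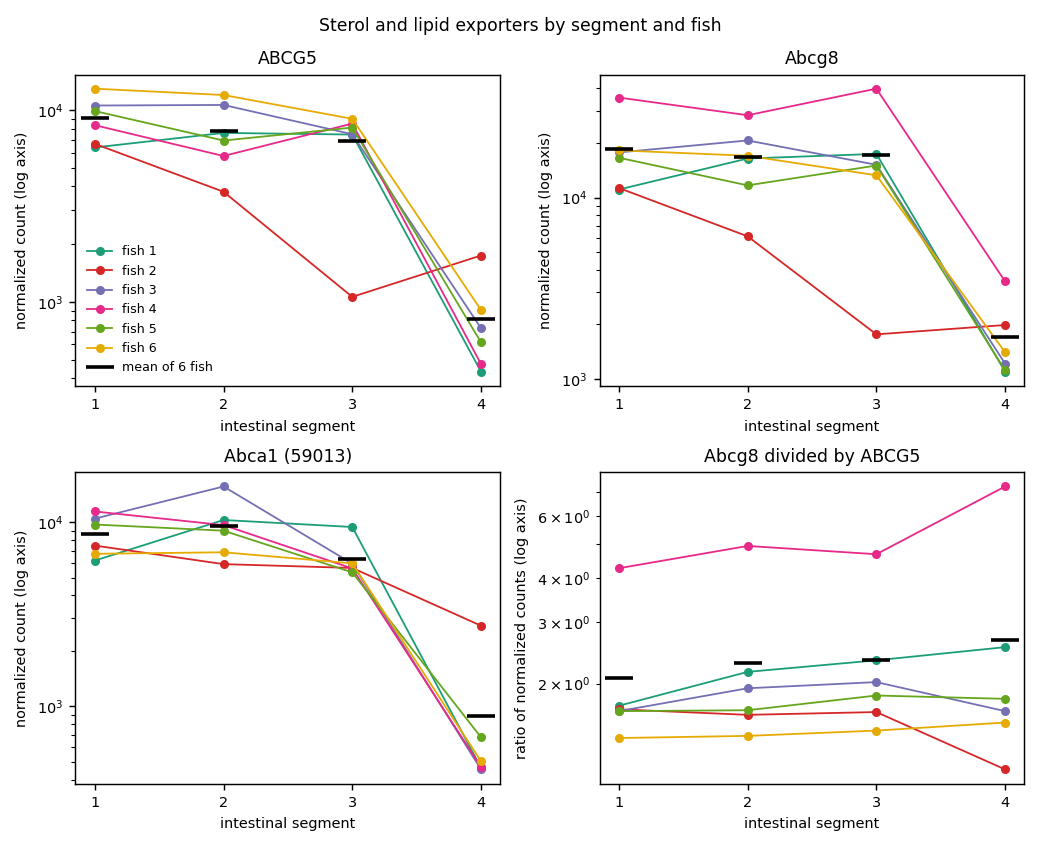
Normalized counts of ABCG5, Abcg8 and Abca1 (LABE_00059013), and the ratio of Abcg8 to ABCG5, are plotted on log axes against segment, with 1 coloured line per fish and a black bar at the mean of 6 fish. The red line of fish 2 drops at segment 3 for ABCG5 and Abcg8 and stays highest at segment 4 for Abca1, and fish 4 (magenta) runs above the other fish in the ratio panel.

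None of the other 4 ABCA1 models was called between segments 4 and 1 without a block, and with the block 1 of them was called, higher. Abca1 (LABE_00040346) was 7593 (3559 to 8665) in segment 1, 6964 (4019 to 7822) in segment 2, 7374 (4926 to 8295) in segment 3 and 8264 (5134 to 10872) in segment 4, a log2 fold change of 0.28 ± 0.21 (SE, adjusted p = 0.337). With fish as a block it was called higher in segment 4 (adjusted p = 0.0134, range over the alternatives 0.00196 to 0.508), and fish 1 was the lowest of the 6 in all 4 segments. It was also higher in segment 4 than in segment 3 in all 6 fish, which was called with the block and without fish 2 (adjusted p = 0.0236, range 0.0236 to 0.77). ABCA1 (LABE_00004994) had medians of 996, 1308, 1002 and 798 along the 4 segments and a log2 fold change of -0.21 ± 0.19 (SE, adjusted p = 0.443) for segment 4 against segment 1. Its F test was called with the block (adjusted p = 0.00331) and without fish 2 (0.00584), against 0.111 with all fish and no block. From segment 3 to segment 4 it was lower in all 6 fish, at -0.28 ± 0.19 (SE, adjusted p = 0.416). With the block and without fish 2 it was called lower in segment 4 than in segment 3 (adjusted p = 0.0388, range 0.0388 to 0.685) and than in segment 1 (adjusted p = 0.0167, range 0.0167 to 0.629), at -0.27 and -0.29, higher in segment 2 than in segment 1 (adjusted p = 0.014, range 0.014 to 1) and lower in segment 3 than in segment 2 (adjusted p = 0.00679, range 0.00679 to 0.914). ABCA1 (LABE_00052642) and ABCA1 (LABE_00072850) had values of -0.29 ± 0.38 (SE, adjusted p = 0.62) and 0.34 ± 0.28 (SE, adjusted p = 0.396). Their medians were 223, 325, 227 and 169 for the former and 119, 128, 145 and 142 for the latter. Within fish, the change of LABE_00059013 from segment 1 to segment 4 was below that of each of these 4 models in all 6 fish, by means of 3.36 to 3.98 on the log2 scale.

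Partners of sterol and phospholipid export were examined as a list, on which 10 gene models were tested. In segment 4 against segment 1, 5 of them fell and 2 rose, with a median log2 fold change of -1.10. Among all gene models 14.8% were lower and 17.1% higher, with a median of 0.04. MTTP (LABE_00036048), which loads lipid onto lipoproteins, had medians of 12659 in segment 1 and 2763 in segment 4 and a log2 fold change of -2.18 ± 0.19 (SE, adjusted p = 4.87e-09). SCARB1 (LABE_00069339), a lipoprotein receptor, had medians of 5605 and 502 and a value of -3.08 ± 0.31 (SE, adjusted p = 3.98e-08). NPC1 (LABE_00019059), which moves cholesterol out of lysosomes, rose, with medians of 574 and 1659 and a value of 1.46 ± 0.14 (SE, adjusted p = 1.85e-08). Npc1l1 (LABE_00014401), the sterol importer of the brush border, was picked after its values were seen and fell, at -4.36 ± 0.61 (SE, adjusted p = 5.43e-06). Nr1h3 (LABE_00034552), a sterol-sensing receptor that drives ABCA1, ABCG5 and ABCG8 in mammals, was also picked in this way, with medians of 1774 and 1664 and a value of -0.01 ± 0.10 (SE, adjusted p = 0.951). NR1H2 and SREBF2 were not matched by name.

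The remaining ABCA members changed less. Abca2 (LABE_00030740), a lipid transporter of endosomes and lysosomes, was 2339 (1531 to 2649.9) in segment 1, 2164 (1372 to 2349) in segment 2, 2082 (1738 to 2536) in segment 3 and 1268 (776 to 2036) in segment 4. The groups overlapped, but segment 4 was lower in all 6 fish, at -0.81 ± 0.19 (SE, adjusted p = 0.00156) against segment 1 and -0.72 ± 0.19 (SE, adjusted p = 0.00996) against segment 3. The second of these calls was lost without fish 3 (adjusted p = 0.0501) or fish 6 (0.0576). ABCA3 (LABE_00003637), which packs phospholipid into lamellar bodies in the lung, was 938 (795 to 1571), 888 (784 to 989.6), 738 (440.0 to 894) and 545 (447 to 809.6), lower in all 6 fish in segment 4 than in segment 1, at -0.82 ± 0.19 (SE, adjusted p = 0.0015). It was also lower in segment 3 than in segment 1, at -0.64 ± 0.19 (SE, adjusted p = 0.0224), a call lost without fish 2 (adjusted p = 0.0533) or fish 5 (0.179). ABCA12 (LABE_00019785), known for lipid secretion in skin, was low and rose in all 6 fish, from 24.2 (8.64 to 39.3) in segment 1 through 35.4 and 37.2 as medians of segments 2 and 3 to 55.1 (38.3 to 87.7) in segment 4, a log2 fold change of 1.26 ± 0.31 (SE, adjusted p = 0.00337). With the block it was also called higher in segment 3 than in segment 1 (adjusted p = 0.0291, range 0.0291 to 0.301). ABCA5 (LABE_00062219) was 1189 (1060.1 to 1412) in segment 1 and 1189.8 (1036 to 1284) in segment 4, with a value of -0.04 ± 0.08 (SE, adjusted p = 0.782). Abca4 (LABE_00000687), the retinoid transporter of the retina, was at 0 to 34.0 over all libraries, with medians of 3.12, 7.25, 11.1 and 7.08. It was not called by the main test. DESeq2 and the fit without fish 1 called it higher in segment 3 than in segment 1 (adjusted p over the alternatives 0.0304 to 0.489).

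ABCB11, the bile salt export pump of the liver, had the largest log2 fold change between segments 4 and 1 among the 47 members. The model LABE_00036579 was 1786 (564 to 3761) in segment 1, 180.4 (72.6 to 802) in segment 2, 26.9 (1.07 to 286) in segment 3 and 1.81 (0.627 to 5.68) in segment 4. It was lower in all 6 fish in segment 2 than in segment 1 and in segment 3 than in segment 2, and in 5 of 6 fish in segment 4 than in segment 3. Segment 1 did not overlap segments 3 and 4. The 6 libraries of segment 4 held 16 reads in all (95% Poisson interval 9.15 to 26.0, counting error only), 1 to 6 in each, against 10320 in segment 1. The log2 fold change was -5.95 ± 0.87 (SE, adjusted p = 3.92e-05) for segment 3 against segment 1, -3.22 ± 0.87 (SE, adjusted p = 0.0147) for segment 4 against segment 3 and -9.17 ± 0.87 (SE, adjusted p = 1.95e-08) for segment 4 against segment 1. The call against segment 3 was lost without fish 1 (adjusted p = 0.0637), fish 5 (0.0886) or fish 6 (0.0795). With fish as a block the steps from segment 1 to 2 and from 2 to 3 were called as well (adjusted p = 0.0365, range 0.0281 to 0.623, and 0.0162, range 0.0162 to 0.463). Library weights with no block called the step from segment 2 to 3 too. A second ABCB11 model (LABE_00037993) reached no more than 14.4 and was not tested.

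Since ABCB11 is a gene of hepatocytes, their markers were read beside it. ALB was not matched by name. FGB and TTR were picked after their values were seen. FGB was at 0 to 3.7 in the libraries of segment 1 and at 0 in segment 4, and TTR was at 0 to 9.17 in segment 1. Other models of the list apart from CYP7A1 are given only within sums. The whole list of 11 models summed to 6247 to 40337 in segment 1 (median 10001), 3288 to 40059 in segment 2 (5882), 1227 to 13849 in segment 3 (3198) and 504 to 1584 in segment 4 (669). Most of this sum in segment 1 came from 2 models named CYP7A1, which summed to 5581 to 39126 there and to 8.52 to 969.9 in segment 4. The 9 models of the list other than CYP7A1 summed to 465 to 1275 in segment 1, 769 to 1613 in segment 2, 517 to 1092 in segment 3 and 439.6 to 700.4 in segment 4. FGB and TTR are among these 9 but made up little of these sums, so their low values do not stand for the list. Of 7 hepatocyte models tested 3 were called by the F test, against 27.5% of all gene models. In segment 4 against segment 1, 1 was called, namely CYP7A1 (LABE_00000787), the rate-limiting enzyme of bile acid synthesis. This model was picked after its values were seen. Its medians were 8996 in segment 1 and 34.4 in segment 4, a log2 fold change of -8.05 ± 0.96 (SE, adjusted p = 5.67e-07). In segment 4 against segment 1 the block called 2 hepatocyte models, edgeR 2 and DESeq2 3, all lower. The fit without fish 2 called 1, lower. At an unadjusted limma p under 0.05, 1 was higher and 2 were lower. Among all gene models the main test called 17.1% higher and 14.8% lower, the block 22.0% and 19.8%, and the fit without fish 2 17.4% and 15.3%. No share of all gene models was taken for the edgeR, DESeq2 and unadjusted counts, so they cannot be set beside one. In segment 3 against segment 1 the block called 2, both lower, against 11.4% of all gene models higher and 11.8% lower. The fit without fish 2 called 1 there, higher, while 1473 of all 19515 gene models were higher and 1582 lower. The part of hepatocytes in the fall of ABCB11 was not tested. Exocrine pancreas markers (CTRB1, CELA1, PNLIP and AMY2A not matched by name) summed to 354 to 167866 in segment 1 and 559 to 238298 in segment 4, so that the segments overlapped.

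Partners of bile salt transport were mostly higher in segments 3 and 4. Of 9 models tested, 4 were higher in segment 3 than in segment 2, and 5 were higher and 1 lower in segment 3 than in segment 1, with a median log2 fold change of 1.10 for the latter. In segment 4 against segment 1 the counts were again 5 higher and 1 lower, with a median of 1.28. Among all gene models 1.01% were higher and 1.07% lower in segment 3 than in segment 2. The shares were 7.13% and 6.81% for segment 3 against segment 1, and 17.1% and 14.8% for segment 4 against segment 1. Between segments 4 and 3 limma called 0 models (1 at an unadjusted p under 0.05, lower), while edgeR, DESeq2 and the fit without fish 2 each called 1, lower, and the block called 1 higher and 1 lower. Of all gene models, limma called 5.21% higher and 5.82% lower there, the fit without fish 2 7.44% and 7.63%, and the block 8.67% and 9.67%. For the unadjusted, edgeR and DESeq2 counts no such share was taken. SLC10A2 (LABE_00014762), the bile salt importer of the ileum in mammals, had medians of 43.5, 66.8, 9098 and 15533 along the segments and a log2 fold change of 7.54 ± 0.82 (SE, adjusted p = 1.04e-06) for segment 3 and 8.52 ± 0.82 (SE, adjusted p = 2.36e-08) for segment 4 against segment 1. Fabp6 (LABE_00051334), which binds bile salts in the cell, had medians of 292, 251, 146725 and 142740.0 and values of 8.58 ± 1.11 (SE, adjusted p = 8.06e-06) and 9.36 ± 1.11 (SE, adjusted p = 5.13e-07). slc51a (LABE_00015135), a subunit of the basolateral bile salt exporter, had medians of 265, 285, 4156 and 2466, highest in segment 3, and values of 3.52 ± 0.46 (SE, adjusted p = 8.8e-06) and 3.12 ± 0.46 (SE, adjusted p = 1.03e-05). A second slc51a model (LABE_00053185) was low, with medians of 25.1, 17.6, 10.3 and 15.4, and was not called. The sum over the list was 12444 in the segment 3 library of fish 2 and up to 263415 in the other libraries of segment 3, with a median of 172210 over the 6.

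ABCB1 (LABE_00032514), named for the drug pump P-glycoprotein, was lower in the hind-gut. It was 6593 (5123 to 7587) in segment 1, 6535 (5420.1 to 8897) in segment 2, 6889 (5657 to 9094) in segment 3 and 4229 (3543 to 5627) in segment 4, so that segment 4 did not overlap segment 3. The log2 fold change was -0.69 ± 0.14 (SE, adjusted p = 0.00144) against segment 3, lower in all 6 fish, and -0.58 ± 0.14 (SE, adjusted p = 0.00313) against segment 1, lower in 5 of 6. The call against segment 1 was lost under quantile normalization (log2 fold change -0.39, adjusted p = 0.0559).

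Among the members of mitochondria and lysosomes, abcb6 and 1 Abcb9 model were called lower in segment 4 than in segment 1. abcb6 (LABE_00055212), a porphyrin transporter, was 684 (574 to 998) in segment 1, 399 (291 to 538) in segment 2, 303 (244 to 333) in segment 3 and 235 (153 to 430.3) in segment 4. Segment 1 did not overlap any other segment, and all 6 fish fell from segment 1 to each of the others. The log2 fold changes against segment 1 were -0.87 ± 0.19 (SE, adjusted p = 0.0287) in segment 2, -1.25 ± 0.19 (SE, adjusted p = 6.94e-05) in segment 3 and -1.53 ± 0.19 (SE, adjusted p = 1.2e-06) in segment 4. This was the only member called between segments 1 and 2, and that call was lost when any 1 fish was left out (adjusted p 0.0535 to 0.221) while the block kept it (0.0054).

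ABCB10 (LABE_00000209), a mitochondrial member needed for heme in mouse red cells, was 308 (256 to 409.6) in segment 1 and 245 (181 to 315) in segment 4, lower in all 6 fish, at -0.40 ± 0.16 (SE, adjusted p = 0.0544). This missed the threshold and passed it with the block (adjusted p = 0.00773, range 0.00773 to 0.163). abcb8 (LABE_00046585), another mitochondrial member, was 322 (218 to 398) and 315 (207 to 381), with a value of -0.07 ± 0.18 (SE, adjusted p = 0.808). Among partners in mitochondrial iron, heme and iron-sulphur handling 14 models were tested. In segment 4 against segment 1, 17.1% of all gene models were called higher and 14.8% lower. Of the 14, 4 were called in that comparison, all lower, with a median of -0.17. They include Iscu (LABE_00034699), the iron-sulphur scaffold, at -0.48 ± 0.09 (SE, adjusted p = 0.00027), and alas1 (LABE_00008144), a low model named for the entry enzyme of heme synthesis, with medians of 31.6 in segment 1 and 11.3 in segment 4, at -1.37 ± 0.42 (SE, adjusted p = 0.0142). The abundant alas1 model (LABE_00022036), picked after its values were seen, had medians of 30094 and 20544 and was not called, at -0.50 ± 0.43 (SE, adjusted p = 0.414). Between segments 4 and 3, 2 of the 14 partners were higher and 0 lower, against 5.21% and 5.82% of all gene models. Between segments 3 and 1, 0 were higher and 2 lower, against 7.13% and 6.81%.

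Of the models named for the lysosomal peptide transporter ABCB9, 1 fell and the other was not called. Abcb9 (LABE_00021225) was 834 (678 to 953) in segment 1, 723 (641 to 877) in segment 2, 541 (336 to 698) in segment 3 and 257 (158 to 323) in segment 4. Segment 4 did not overlap the other segments, and all 6 fish fell, at -1.76 ± 0.19 (SE, adjusted p = 9.82e-08) against segment 1 and -1.05 ± 0.19 (SE, adjusted p = 0.000261) against segment 3. The difference of segment 3 from segment 1 was -0.71 ± 0.19 (SE, adjusted p = 0.0116), a call lost without fish 3 (adjusted p = 0.0696) or fish 4 (0.0881). Abcb9 (LABE_00083447) was 284 (229 to 414) in segment 1 and 387 (227 to 419.8) in segment 4, with a value of 0.25 ± 0.19 (SE, adjusted p = 0.334). Within fish the change of the first model minus that of the second was -2.01 ± 0.85 (SD, n = 6) on the log2 scale and below 0 in all 6 fish.

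**Figure D4:**
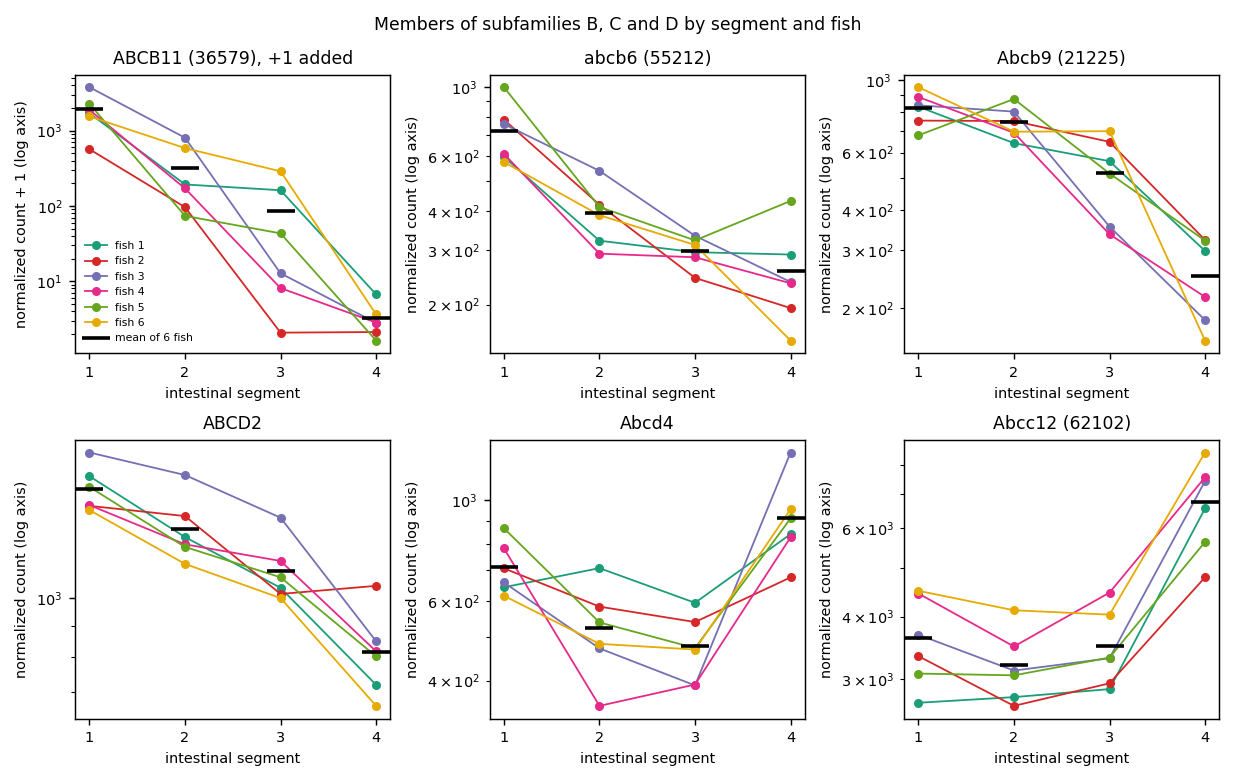
Normalized counts of 6 members are plotted on log axes against segment, with 1 coloured line per fish and a black bar at the mean of 6 fish; 1 was added to ABCB11 so that low values can be drawn. ABCB11, abcb6, Abcb9 and ABCD2 step down along the gut, Abcd4 is lower in segments 2 and 3 than in segment 4, and Abcc12 (LABE_00062102) is highest in segment 4 in all 6 fish.

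Among the ABCC members, which include the multidrug resistance-associated proteins, 5 of 16 tested were higher and 1 lower in segment 4 than in segment 1, against 17.1% and 14.8% of all gene models. In segment 4 against segment 3 the calls were 2, both higher, where 5.21% of all gene models were higher and 5.82% lower. With the block these counts were 6 higher and 2 lower, against 22.0% and 19.8%, and 4 higher and 0 lower, against 8.67% and 9.67%. The median log2 fold change of segment 4 against segment 1 was 0.05. For the other subfamilies it was -0.12 in ABCA, -0.49 in ABCB, -0.90 in ABCD, 0.24 in ABCE, 0.34 in ABCF and -0.80 in ABCG. The member whose segment 4 lay above segment 1 without overlap, Abcc12 (LABE_00062102), was 3509 (2696 to 4501) in segment 1, 3090.4 (2658 to 4117) in segment 2, 3310.2 (2869.9 to 4464) in segment 3 and 7002 (4789 to 8478) in segment 4. Every library of segment 4 lay above those of the other segments, and all 6 fish rose, at 0.89 ± 0.15 (SE, adjusted p = 7.1e-05) against segment 1 and 0.94 ± 0.15 (SE, adjusted p = 8.87e-05) against segment 3. Abcc12 (LABE_00061252) was low and fell, from 41.1 (23.8 to 62.6) in segment 1 through 28.2 (13.7 to 53.5) and 15.3 (4.68 to 23.1) to 6.2 (0.911 to 20) in segment 4, a log2 fold change of -2.45 ± 0.51 (SE, adjusted p = 0.000661). Its call in segment 3 against segment 1 of -1.59 ± 0.51 (SE, adjusted p = 0.0391) was lost without filter (adjusted p = 0.0572), with edgeR (0.0594) and without any of fish 1, 2, 3, 5 or 6 (0.0575 to 0.171). Abcc12 (LABE_00080890) was at 3.46 to 105 over all libraries and was not called. Within fish, LABE_00062102 and LABE_00061252 differed in their change by 3.35 ± 1.25 (SD, n = 6) on the log2 scale, in 1 direction in all 6 fish.

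ABCC4, an exporter of cyclic nucleotides and prostaglandins, had 4 tested models. ABCC4 (LABE_00038011) was 1921 (1484 to 2131) in segment 1, 1918 (1607 to 2312) in segment 2, 1959 (1835 to 2654) in segment 3 and 3475 (1797 to 3963) in segment 4. Fish 2 was the lowest of segment 4 at 1797, and the other 5 fish of segment 4 were at 3016 or above. The log2 fold change was 0.76 ± 0.15 (SE, adjusted p = 0.000319) against segment 1, higher in all 6 fish, and 0.59 ± 0.15 (SE, adjusted p = 0.00808) against segment 3, higher in 5 of 6. Without fish 2 these were 0.89 (adjusted p = 6.49e-07) and 0.82 (adjusted p = 3.2e-06), and the call against segment 3 was lost without fish 4 (adjusted p = 0.067), fish 5 (0.0684) or fish 6 (0.0858). ABCC4 (LABE_00082641) was 74.5 (62.2 to 117) in segment 1, 80.6 (55.7 to 119.8) in segment 2, 88.2 (76.3 to 127) in segment 3 and 142 (56.8 to 184) in segment 4, with fish 2 again the lowest of segment 4. Its value was 0.71 ± 0.23 (SE, adjusted p = 0.0217), and the call was lost without fish 1 (adjusted p = 0.0831), fish 4 (0.0523), fish 5 (0.115) or fish 6 (0.0953), while without fish 2 it was 0.88 (adjusted p = 0.00144). Against segment 3 it was 0.45 ± 0.23 (SE, adjusted p = 0.262), higher in 5 of 6 fish, and this was called without fish 2 (0.77, adjusted p = 0.00885) and without its segment 4 library alone (0.68, adjusted p = 0.0162, range 0.00149 to 0.611 over the alternatives). ABCC4 (LABE_00048698) had medians of 458, 529, 402 and 479 and a value of 0.04 ± 0.14 (SE, adjusted p = 0.874). With the block and without fish 2 it was called lower in segment 3 than in segment 2 (adjusted p = 0.0148, range 0.0148 to 0.851) and higher in segment 4 than in segment 3 (adjusted p = 0.0163, range 0.0163 to 0.573). ABCC4 (LABE_00017498) had medians of 22, 11.4, 12.1 and 18.1 and a value of -0.35 ± 0.48 (SE, adjusted p = 0.633).

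Of the 3 tested models named ABCC1, an exporter of glutathione conjugates, 1 was called by the main test. ABCC1 (LABE_00053808) was low at 13.2 (0 to 38.2) in segment 1, 7.02 (1.61 to 9.94) in segment 2 and 20.4 (3.25 to 34.5) in segment 3, and was 54.8 (32.3 to 93.7) in segment 4. It was higher in all 6 fish than in segment 1, at 2.43 ± 0.66 (SE, adjusted p = 0.00626), and with the block it was called against segment 3 too (adjusted p = 0.0473, range 0.00871 to 0.309). Abcc1 (LABE_00064837) had medians of 274, 332, 342 and 341. Its difference of segment 4 from segment 1 was 0.31 ± 0.14 (SE, adjusted p = 0.0925), higher in all 6 fish, and was called with the block (adjusted p = 0.0091, range 0.0091 to 0.217) and without the segment 4 library of fish 2 (0.37, adjusted p = 0.0454). The difference of segment 3 from segment 1 was called with the block (adjusted p = 0.0113, range 0.0113 to 0.273) and with library weights. Abcc1 (LABE_00022342) was at 0 to 22.4 over all libraries, with medians of 5.72, 11.8, 10.6 and 7.74, and was not called.

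ABCC2 (LABE_00034121), the luminal pump for conjugated compounds, was 9038 (6319.8 to 19474) in segment 1, 5687 (3593 to 13813) in segment 2, 4314 (2820.2 to 9179) in segment 3 and 6893 (3206 to 8374) in segment 4. It was lower in segment 3 than in segment 1 in all 6 fish, at -0.98 ± 0.33 (SE, adjusted p = 0.0469), but the groups overlapped and the call was lost without any fish other than fish 3 (adjusted p 0.0631 to 0.153), with edgeR (0.0615), with no filter (0.061), under quantile normalization (0.119), with library weights (0.132) and with robust variance (0.0526). The block kept it (adjusted p = 0.00157) and added a call in segment 4 against segment 1 (0.0187, range 0.0187 to 0.428). Abcc3 (LABE_00028479), which exports conjugates and bile salts to the blood side in mammals, was 1623 (1509.9 to 1961) in segment 1, 1245 (1098 to 1979) in segment 2, 1210.0 (916 to 1449) in segment 3 and 1444 (1411 to 1760.5) in segment 4. Segment 3 did not overlap segment 1 and was lower in all 6 fish, at -0.49 ± 0.12 (SE, adjusted p = 0.00904). From segment 3 to segment 4 all 6 fish were higher in segment 4, at 0.35 ± 0.12 (SE, adjusted p = 0.0725), which missed the threshold but was called with the block (adjusted p = 0.0161, range 0.00181 to 0.343) and without fish 2 (0.42, adjusted p = 0.00684). Quantile normalization and library weights called it as well.

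The sulphonylurea receptors ABCC8 and ABCC9 are regulatory subunits of potassium channels. ABCC8 (LABE_00002637) was 32.2 (23.6 to 92.5) in segment 1, 59.7 (36.1 to 92) in segment 2, 66.5 (46.1 to 71.9) in segment 3 and 63.4 (43.8 to 119) in segment 4, higher in 4 of 6 fish, at 0.84 ± 0.30 (SE, adjusted p = 0.0358). That call was lost with no filter (adjusted p = 0.051), under quantile normalization (0.064), with edgeR (0.0613) and without fish 2 (0.0744), fish 3 (0.0605), fish 4 (0.18) or fish 5 (0.234). Abcc9 (LABE_00070641) had medians of 116, 111, 90.1 and 129, with a value of 0.06 ± 0.20 (SE, adjusted p = 0.851), and was called lower in segment 3 than in segment 1 with the block and without fish 2 (adjusted p = 0.0378, range 0.0378 to 0.512). Its channel partner Kcnj8 (LABE_00070642) had a value of 0.03 ± 0.19 (SE, adjusted p = 0.923), and KCNJ11 was too low to be tested. ABCC5 (LABE_00029262), a cyclic nucleotide exporter, had medians of 420.4, 457, 399 and 403 and a value of -0.04 ± 0.12 (SE, adjusted p = 0.849). Abcc10 (LABE_00027474) had a value of -0.10 ± 0.11 (SE, adjusted p = 0.548).

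All 3 ABCD members were called by the F test, against 27.5% of all gene models, and with the block as well, against 39.9%. ABCD2 (LABE_00065188), named for a carrier of very long-chain fatty acids into peroxisomes, was 1477 (1399 to 1742) in segment 1, 1246 (1140.3 to 1599) in segment 2, 1062 (1001 to 1359) in segment 3 and 810.1 (665 to 1049) in segment 4. Segment 1 did not overlap segments 3 and 4. The log2 fold change was -0.46 ± 0.10 (SE, adjusted p = 0.00395) for segment 3 against segment 1, -0.45 ± 0.10 (SE, adjusted p = 0.00433) for segment 4 against segment 3 and -0.90 ± 0.10 (SE, adjusted p = 3.61e-07) for segment 4 against segment 1, and fish 6 was the lowest in all 4 segments. Abcd3 (LABE_00025460), a carrier of branched-chain fatty acids and bile acid precursors into peroxisomes, was 6829 (4224 to 8651), 5770.4 (3504 to 9266), 5225 (2924 to 6418) and 2758 (2362 to 3207). In segment 4 it was lower in all 6 fish than in segment 1, at -1.27 ± 0.21 (SE, adjusted p = 5.17e-05), and in 5 of 6 than in segment 3, at -0.83 ± 0.21 (SE, adjusted p = 0.00879), the second of which was lost without fish 1 (adjusted p = 0.0575). With the block segment 3 was also lower than segment 1 (adjusted p = 0.0392, range 0.00798 to 0.563).

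Abcd4 (LABE_00042551), which takes vitamin B12 out of lysosomes and is not a peroxisomal carrier, followed another course. It was 683 (616 to 868) in segment 1, 510.0 (352 to 708) in segment 2, 470.2 (390.4 to 594) in segment 3 and 877 (676 to 1275) in segment 4. Segment 3 did not overlap segments 1 and 4. It fell in all 6 fish from segment 1 to segment 3, at -0.59 ± 0.15 (SE, adjusted p = 0.0114), and rose in all 6 from segment 3 to segment 4, at 0.93 ± 0.15 (SE, adjusted p = 0.000121). The first call was lost without fish 5 (adjusted p = 0.0654). Segment 4 against segment 1 had a value of 0.34 ± 0.15 (SE, adjusted p = 0.0956), with fish 2 the lowest of segment 4 at 676. Without that library it was called higher in segment 4 (0.43, adjusted p = 0.0373), as it was with library weights (adjusted p = 0.029) and with the block and without fish 2 (adjusted p = 0.0406, range 0.029 to 0.349), but not without fish 2 and no block (adjusted p = 0.0569).

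Partners of ABCD carriers in the peroxisome gave 6 calls in 14 models tested for segment 4 against segment 1, all of them lower, with a median log2 fold change of -0.14. Among all gene models 14.8% were lower and 17.1% higher. Pex6 (LABE_00065976), part of the peroxisomal import machinery, had medians of 588, 478, 398 and 265 along the segments and a value of -1.09 ± 0.19 (SE, adjusted p = 7.79e-05).

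The ABCE and ABCF members, which act on ribosomes and translation, were not called in any comparison by the main test. All 4 were called higher in segment 4 than in segment 3 with the block and without fish 2, an alternative chosen after seeing the data. That setting called 11.4% of all gene models higher and 11.6% lower in this comparison. At an unadjusted limma p under 0.05, 0 ABCE and 1 ABCF model passed in segment 4 against segment 1, and edgeR and DESeq2 called 0 of the 4. For these counts no share of all gene models was taken. Abce1 (LABE_00063233), the ribosome recycling factor, was 1611 (1419 to 2212) in segment 1, 1809 (1508 to 2384) in segment 2, 1674 (1507 to 1989) in segment 3 and 1975 (1418 to 2612) in segment 4, with a log2 fold change of 0.24 ± 0.16 (SE, adjusted p = 0.274). With the block and without fish 2 it was called higher in segment 4 than in segment 3 (adjusted p = 0.0163, range 0.0163 to 0.792) and than in segment 1 (adjusted p = 0.0192, range 0.0192 to 0.501). ABCF1 (LABE_00041034), a partner of translation initiation, was 1626 (1215 to 2382), 1804 (1433 to 2588), 1766 (1630.0 to 2066) and 2184 (1553 to 2911), higher in all 6 fish in segment 4 than in segment 1, with a value of 0.35 ± 0.16 (SE, adjusted p = 0.0887). The block called it in segment 4 against segment 1 (adjusted p = 0.00328, range 0.00128 to 0.269) and against segment 3 (0.0344, range 0.00149 to 0.583), and fish 1 was the highest in all 4 segments. Without the segment 4 library of fish 2 it was called against segment 1 with no block (0.45, adjusted p = 0.0263). It was also called against segment 1 under quantile normalization, with library weights and without fish 1, all with no block. Abcf2 (LABE_00015832) had medians of 1491, 1518, 1435 and 1689.6 and a value of 0.34 ± 0.22 (SE, adjusted p = 0.257). With the block and without fish 2 it was called higher in segment 4 than in segment 3 (adjusted p = 0.00467, range 0.00467 to 0.653) and than in segment 1 (adjusted p = 0.0319, range 0.0319 to 0.668). Abcf3 (LABE_00062813) had medians of 1314, 1380.4, 1300.2 and 1451 and a value of 0.12 ± 0.13 (SE, adjusted p = 0.51), and in that setting it was called against segment 3 (adjusted p = 0.0301, range 0.0301 to 0.887). Of 6 tested partners of ribosome recycling 1 was called in segment 4 against segment 1, and this was pelo (LABE_00002075), which rescues stalled ribosomes, at -0.46 ± 0.11 (SE, adjusted p = 0.00175). Among all gene models 14.8% were lower and 17.1% higher in that comparison.

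Outside the sterol pair, 1 of the 2 tested ABCG2 models was called with no block, and it was lower in the hind-gut. Abcg2 (LABE_00027676), named for a luminal drug and urate exporter, was 3632 (1684 to 5095) in segment 1, 2882 (2036 to 4368) in segment 2, 2816 (2184 to 4886) in segment 3 and 1123 (909.9 to 1746) in segment 4. Segment 4 did not overlap segment 3 and was lower in all 6 fish, at -1.33 ± 0.23 (SE, adjusted p = 0.000209) against segment 3 and -1.45 ± 0.23 (SE, adjusted p = 3e-05) against segment 1. ABCG2 (LABE_00065523) was 4399 (2686 to 5867), 3369.5 (2242 to 4964), 3487 (2620.1 to 5275) and 4616 (3129 to 5986), with a value of 0.07 ± 0.21 (SE, adjusted p = 0.856) for segment 4 against segment 1, and the block called it by the F test alone (adjusted p = 0.0376). The change of the first model minus that of the second was -1.51 ± 0.43 (SD, n = 6) on the log2 scale and below 0 in all 6 fish. abcG20 (LABE_00026424), named for a gene outside the vertebrates, was 190.0 (78.8 to 243) in segment 1, 226 (167 to 284) in segment 2, 239 (177 to 272) in segment 3 and 266 (226 to 313) in segment 4, higher in all 6 fish, at 0.61 ± 0.20 (SE, adjusted p = 0.0222). That call was lost without fish 3 (adjusted p = 0.067) or fish 4 (0.0792), and fish 6 was the highest in all 4 segments. Abcg1 (LABE_00064855), a cholesterol exporter of macrophages, was at 0 to 19.4 over all libraries, with medians of 6.91, 10.1, 9.86 and 6.55, and was not called.

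**Figure D5:**
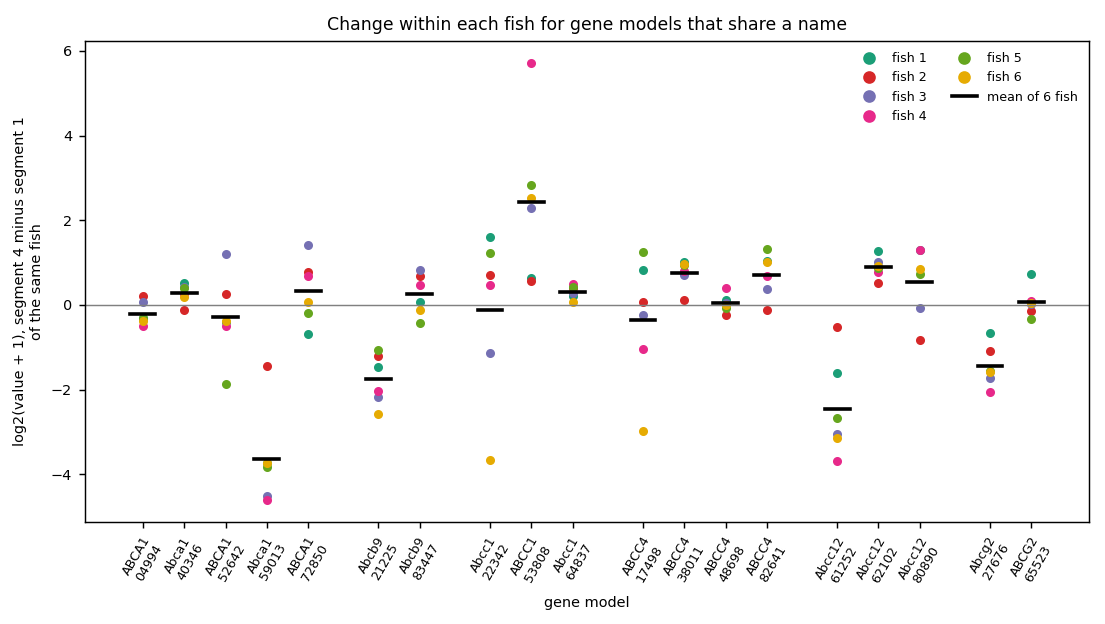
Each point is the change in log2(value + 1) from segment 1 to segment 4 within 1 fish, for gene models grouped by shared name, and black bars give the mean of 6 fish. Abca1 (LABE_00059013), Abcb9 (LABE_00021225), Abcc12 (LABE_00061252) and Abcg2 (LABE_00027676) lie below 0 in all 6 fish, while the other models of those names lie near or above 0 or straddle it.

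All 24 pairs of tested gene models that share a name were compared for their change from segment 1 to segment 4 within fish, whether or not a model was called. In 10 pairs the difference had 1 direction in all 6 fish (4 pairs of ABCA1, 2 of ABCC4 and 1 each of ABCB9, ABCC1, ABCC12 and ABCG2). A two-sided exact permutation test of the signs gave p = 0.0312 for each of these 10, the smallest that 6 fish allow, and an adjusted p of 0.075 over the 24 pairs, so that 0 pairs passed the threshold after adjustment. The other 14 pairs had exact p-values of 0.0625 to 0.875. Since no pair can fall below 0.0312, the adjusted p depended on how many of the 24 pairs reached it, and this test cannot decide on single pairs. Pairs of ABCA1, ABCC1, ABCC4 and ABCC12 also share models, so the 24 are not independent.

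Family members that carry other names were not called by the main test, edgeR or DESeq2. CFTR (LABE_00022960), the chloride channel of subfamily C, had medians of 104, 146, 172 and 112. Tap1 and the 2 Tap2 models, which load peptides for antigen presentation, had log2 fold changes of 0.36, 0.10 and 0.10 for segment 4 against segment 1, and limma called 0 of these 4 models, with 1 at an unadjusted F test p under 0.05, while edgeR and DESeq2 called 0 of the 4 in any comparison. Of 13 tested models of peptide loading, these Tap models included, 3 were called in segment 4 against segment 1, all higher, namely PDIA3 (LABE_00021337 and LABE_00050461) and CALR (LABE_00059943). Of 5 tested models of receptors and factors that respond to foreign compounds 2 were called in segment 4 against segment 1, both lower. Beside both lists, 17.1% of all gene models were higher and 14.8% lower in this comparison. NFE2L2 (LABE_00017441), which drives antioxidant and export genes in mammals, had a value of -0.64 ± 0.14 (SE, adjusted p = 0.000987), and NR1I2, NR1I3 and AHR1 were not matched by name.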

How the data were processed

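RNA from 4 intestinal segments of 6 ballan wrasse was sequenced as TruSeq RNA libraries, a kit that does not mark strand, on an Illumina instrument. Per the study's methods and the submitters' processing notes, the authors trimmed reads with cutadapt and sickle, checked them with FastQC 0.9.2, mapped them to an assembly of their own with TopHat2, obtained counts per MAKER gene model with featureCounts (Subread) and named the models by their best BLAST match in SwissProt. The deposited signal values are these counts after the authors' DESeq2 normalization, as 24 columns, all used. How reads with several matches were counted, the strand setting and the other versions were not given by the sources read here, so antisense or overlapping genes cannot be told apart. Depth ran from 7867202 to 29650320 reads, which limits the precision of low members. Size factors could be recovered, and 93.7 to 99.2% of the values of a library were within 0.05 of a whole number of reads. 1 line without a gene model was left out, and 4221 models had no known name. 1 member and 1 partner gene are not reported here by name, but remain in the counts of tested and called models.

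The main test was limma 3.58.1 (R 4.3.3) on log2(value + 1) over gene models with a value of 10 or more in 6 or more libraries, with a trend of variance on the mean, the 4 segments in 1 fit, no block, two-sided and Benjamini-Hochberg adjusted over all 19515 models. The steps were tested on simulated data. Members and lists were chosen with earlier results of these data known, so no list was tested as a set. Named members were, per subfamily, the 5 of smallest F test p among those called, the 2 of highest mean, and a fixed set of well-known transporters. Members outside this rule are named where called, or were picked after their values were seen. ABCA5, abcb8, Abcc10, Abcb9 (LABE_00083447) and Abcc12 (LABE_00080890) were picked in the latter way. Of partner lists, up to 3 called models of smallest p were given.

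The study's methods have the whole gut of a fish divided into 4 segments, and they describe no paired test. Here the number in the sample titles, read as the fish, pairs the libraries. Deviations from the segment means correlated at 0.435 on average over 36 pairs that share this number (lowest 0.157). Between different numbers and segments they correlated at -0.0864. The main test has no block and so ignores this pairing, which leaves differences between fish in its spread. Calls with fish as a block are given beside it. Alternatives were pseudocounts of 0.5 and 5, no filter, a minimum of 50, quantile and TMM scaling, library weights, robust variance, fish as a replicate block, edgeR 4.0.16 and DESeq2 1.42.0 on the recovered reads, and each fish left out. A further 2 alternatives, without the segment 4 library of fish 2 and the block without fish 2, were chosen after seeing the data. No sequence is printed, since none was matched to these gene models.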

Additional observations from a re-analysis of the deposited data

Results flagged for a closer look

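Within each segment, the lowest or highest of 6 fish was compared with the nearest other fish for 39 named members, that is, in 156 groups of 6. In 11 groups 1 fish lay farther off than Dixon's critical value allows, and chance alone marks about 1 in 20 groups. Fish 2 accounted for 6 of the 11, fish 1 for 3, and fish 3 and fish 4 for 1 each.

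In segment 3, fish 2 had ABCG5 at 1061.3 (other fish 7466 to 9020), Abcg8 at 1761.0 (13261 to 39816) and Abcc1 (LABE_00064837) at 254.34 (334.98 to 382). In segment 4, fish 2 had Abca1 (LABE_00059013) at 2740.5 (454.73 to 679), ABCC4 (LABE_00038011) at 1797.3 (3016 to 3963) and ABCC4 (LABE_00082641) at 56.791 (126 to 184). Fish 1 had Abca4 (LABE_00000687) at 0.0 in segment 3 (8.59 to 34.0), Abca1 (LABE_00040346) at 4019.4 in segment 2 (6404 to 7822) and Abca1 (LABE_00059013) at 9407.6 in segment 3 (5336 to 5973). Fish 4 had Abcg1 at 18.563 in segment 2 (9.31 to 12.1), and fish 3 had ABCC4 (LABE_00082641) at 116.55 in segment 1 (62.2 to 77.7).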

How the results depend on the processing

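Of 44 calls of members between segments, 30 held under each of the 19 alternatives, 17 of them planned, in which their gene model was tested. The filter with the higher minimum value tested only 41 of the 44. The calls of ABCC1 (LABE_00053808) and Abcc12 (LABE_00061252) in segment 4 against segment 1 are among the 30 but were not tested with that filter. The other 14 were lost somewhere, 10 of them when a single fish was left out and in no other setting, and 0 reversed. Fish as a replicate block added 13 member calls and lost 0, and beyond those and the counts given with it, it changed no other call. Counts outside 1.5 times the values reported were as follows. Quantile normalization gave 5 members higher in segment 4 than in segment 3. Library weights gave 3 lower in segment 3 than in segment 2, 1 higher in segment 3 than in segment 1 and 6 higher in segment 4 than in segment 3. The replicate block gave 2 lower in segment 2 than in segment 1, 1 lower in segment 3 than in segment 2, 2 higher in segment 3 than in segment 1 and 6 higher in segment 4 than in segment 3. DESeq2 gave 1 higher in segment 3 than in segment 1. The block over fish 1 and 3 to 6, chosen after seeing the data, gave 31 members by the F test, 1 higher and 5 lower in segment 2 than in segment 1, 3 lower in segment 3 than in segment 2, 2 higher in segment 3 than in segment 1, 12 higher in segment 4 than in segment 3 and 13 higher in segment 4 than in segment 1. With each fish left out in turn, 0 members were lower in segment 2 than in segment 1, 0 to 1 lower in segment 3 than in segment 2, 0 to 1 higher and 6 to 8 lower in segment 3 than in segment 1, 2 to 6 higher in segment 4 than in segment 3 and 4 to 7 higher in segment 4 than in segment 1. No share of all gene models was taken for quantile normalization, library weights, DESeq2 or the fits without fish 1, 3, 4, 5 or 6. Those counts can therefore not be set beside one. Shares are given above for the block fits and, for segment 4, for the fit without fish 2. The cause of the shifts in counts was not tested. Members of low depth limit what could be seen: ABCB11 in segment 4 rested on 16 reads, and the 11 members that were not tested on 4 to 156 reads each.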
